A study of Mus musculus with 40 samples.

Results

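The genes described here encode the subunits of the glutamate and GABA receptors, and they were taken from the table by name. Names matching the AMPA (Gria), NMDA (Grin), kainate (Grik), delta (Grid) and metabotropic glutamate (Grm) families and the GABA-A (Gabr) and GABA-B (Gabbr) families gave 43 genes among 55539 mouse features. A subunit was analysed where it had 10 or more counts in at least 35 of 39 samples, which 38 of the 43 did, among 15224 features in all. All 4 AMPA, 5 kainate, 2 delta and 2 GABA-B genes passed, with 6 of 7 NMDA, 7 of 8 metabotropic and 12 of 15 GABA-A genes. The genes below the limit were Gabra6, Gabre, Gabrq, Grin3b and Grm6, whose mean levels were between 0.00820 and 0.507 CPM (counts scaled to a library total of 1000000).

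The tissue was somatomotor cortex of the left side, taken from female mice of the 3xTg-AD strain on C57BL/6J at an age of 2 to 4 months. Every mouse, sham animals included, carried the 3 Alzheimer's disease alleles of this strain, which are mutant human APP and tau driven by the neuronal Thy1 promoter and a mutant presenilin 1, so no group lacked them. Mice received 1 to 5 closed-head injuries (1xCHI to 5xCHI) by weight drop under anesthesia, 1 per day, and shams received anesthesia alone. In the study, shams were matched to the injured mice in anesthesia exposures and times, and were then pooled. The labels do not give the exposures of single shams. The 39 samples were 4 shams and 10, 3, 9, 3 and 10 mice with 1 to 5 injuries in turn. The 1xCHI and 5xCHI mice were taken 30 min (3 each), 4 h (3 each) or 24 h (4 each) after the last injury, the 3xCHI mice at the same times (3, 2 and 4), and the 2xCHI and 4xCHI mice at 24 h only. Each library came from bulk tissue of 1 animal and held 15926014 to 27859547 counts (median 19028778). Fewer cells of a type and less RNA per cell cannot be told apart in such tissue.

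AMPA, NMDA, kainate and GABA-A receptors are ion channels built from several subunits. The first 3 admit cations when glutamate binds and excite the neuron, whereas GABA-A receptors admit chloride and usually inhibit it. Metabotropic glutamate receptors and the GABA-B receptor act through G proteins, and the delta subunits are gathered at synapses by binding cerebellins rather than by opening to glutamate. Cortical principal neurons carry most of these subunits, and the makeup of a receptor sets its conductance, its kinetics and where it sits.

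Several GABA-A genes lie side by side. On GRCm38 (mm10), Gabrg1, Gabra2, Gabra4 and Gabrb1 fall between positions 70751047 and 72149037 of chromosome 5. Gabra4 and Gabrb1 lie on opposite strands and overlap at their starts, with 196 bases of shared gene span and 46 shared exonic bases. Counts in the shared bases cannot be assigned to either gene unless the counting used strand, which the sources used here do not give. Their start regions are shown because the levels of these neighbours correlated across the libraries before, but not after, correction for library trends, as given further on. RefSeq start windows (250 bases before the start and 50 from it, GRCm38.p6) were found for 28 of the 43 genes. Gabrb1 has a pair of annotated starts, and 288 bases separate its first window from that of Gabra4. Capitals mark the letters searched for as the binding motif of NRF-1, which read the same on both strands.
Gabra4, chr5:71658259-71658558, minus strand: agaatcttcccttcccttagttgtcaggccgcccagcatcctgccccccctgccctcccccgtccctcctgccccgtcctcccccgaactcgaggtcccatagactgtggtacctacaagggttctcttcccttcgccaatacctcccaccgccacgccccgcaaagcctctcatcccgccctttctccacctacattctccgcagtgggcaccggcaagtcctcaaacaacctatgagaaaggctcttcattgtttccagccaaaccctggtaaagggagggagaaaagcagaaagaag
Gabrb1 first start, chr5:71657671-71657970, plus strand: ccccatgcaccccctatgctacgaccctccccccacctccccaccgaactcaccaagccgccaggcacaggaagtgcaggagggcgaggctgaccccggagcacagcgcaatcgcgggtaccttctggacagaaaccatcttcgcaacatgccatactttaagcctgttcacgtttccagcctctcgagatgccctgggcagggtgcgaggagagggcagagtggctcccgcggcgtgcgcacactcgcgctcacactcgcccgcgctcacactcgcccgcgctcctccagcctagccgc
Gabrb1 second start, chr5:71699682-71699981, plus strand: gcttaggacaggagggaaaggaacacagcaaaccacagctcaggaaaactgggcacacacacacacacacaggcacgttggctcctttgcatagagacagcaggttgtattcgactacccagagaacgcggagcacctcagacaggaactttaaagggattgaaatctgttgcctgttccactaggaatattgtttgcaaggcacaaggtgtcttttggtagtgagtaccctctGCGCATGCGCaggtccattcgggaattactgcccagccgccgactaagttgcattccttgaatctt
The NRF-1 letters stood in 1 of these 3 windows, 16 bases before the second Gabrb1 start, and in 319 of all 32851 windows (0.971%). Gabrb1 was the only 1 of the 28 genes to hold them. The 8-base cyclic AMP response element, TGACGTCA, also the same on both strands, was in 588 windows (1.79%) and in 0 of the 28 genes' windows. The Gabra4 window held 12 CpG dinucleotides, the first Gabrb1 window 25 and the second 9, against a median of 7 over all windows.

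Levels differed widely between subunits of 1 receptor class. Per kilobase of transcript, the highest mean levels over 39 samples were those of Gabbr1, which binds GABA in the GABA-B receptor (129 CPM per kb), and Grin1, the obligatory NMDA subunit (119). Gria2, the subunit that makes AMPA receptors impermeable to calcium, was at 78.0 CPM per kb, above Gria3 (54.1), Gria1 (49.0) and Gria4 (21.5). The glutamate-binding NMDA subunits Grin2a and Grin2b stood at 17.0 and 15.1 CPM per kb, Grin2c at 11.4, the glycine-binding Grin3a at 4.50 and Grin2d at 2.20. Among kainate genes the high-affinity auxiliary subunit Grik5 (47.9) was above Grik3 (8.98), Grik2 (6.07), Grik4 (3.91) and Grik1 (2.97). Some of these orders depend on the length used. Scaled by the union of a gene's exons instead, Gria1 (44.9) stood above Gria3 (28.5) and Grin2b (14.7) above Grin2a (13.9). Gabbr1 was then at 87.5 and Grin1 at 52.5, beside Gria2 at 52.0.

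Of the metabotropic genes, Grm5, which couples to phospholipase C in neurons, was at 19.2 CPM per kb, and the adenylyl cyclase inhibiting receptors Grm3, Grm2 and Grm7 were at 14.9, 11.0 and 10.3. Grm4 and Grm8 were at 4.43 and 3.58 CPM per kb. Among GABA-A genes Gabra3 was at 34.9 and the extrasynaptic subunit Gabrd at 34.7 CPM per kb. Gabra2 (26.2), Gabra4 (25.7), Gabrb2 (17.1), Gabra5 (14.5) and Gabrb1 (8.71) lay below them, and above Gabrg1 (4.17) and Gabrg3 (2.88). Gabbr2, the partner of Gabbr1 that couples to G proteins, was at 52.5 CPM per kb, and the delta gene Grid1 was at 8.83.

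**Figure D1:**
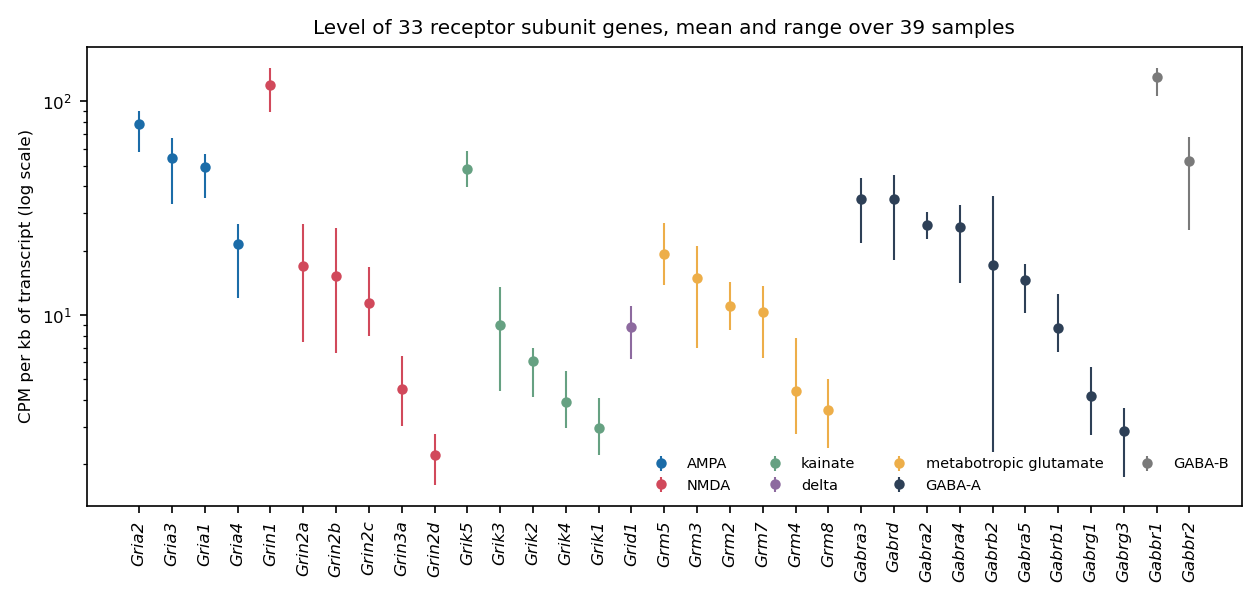
Mean level of 33 of the 38 subunits in CPM per kilobase of transcript (log axis), grouped by receptor class, with lines from the lowest to the highest of the 39 samples. Gabbr1 (129) and Grin1 (119) stand highest and Grin2d (2.20) lowest, and the line for Gabrb2 is the longest.

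The first comparison asked whether subunit levels differed between sham mice and mice with a given number of injuries, over all times. No subunit passed an adjusted p of 0.05 in edgeR's quasi-likelihood test after any number of injuries, and neither did any of the 15224 features (0% called in each of the 5 comparisons). The smallest adjusted p of a subunit in edgeR was 0.232, 0.943, 0.911, 1.00 and 0.372 for 1 to 5 injuries in turn. Most subunits had a lower mean in injured mice, though by little. The median log2 fold change of the 38 subunits was −0.16, −0.12, −0.11, −0.07 and −0.16 for 1 to 5 injuries in turn, while that of all features lay between −0.006 and 0.013. These medians varied with the libraries used. Within samples 19 to 40 that of 1xCHI was 0.02, with 16 of 38 subunits lower. That of 4xCHI was 0.0046 without sample 25, and that of 5xCHI was −0.11 without sample 11. Values below 0 were found for 31, 31, 32, 30 and 32 of the 38 subunits, and for 47.5, 50, 50.1, 51.8 and 47.5% of all features. The 5 comparisons share the same 4 sham samples.

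At an unadjusted p below 0.05, 8 subunits were lower after 1xCHI, where 6.33% of all features were. With 2xCHI 5 subunits were lower (2.12% of all features), with 3xCHI 1 (1.6%), with 4xCHI 0 (1.04%) and with 5xCHI 5 (4.07%), and none was higher in any of them. These values fell on 12 different subunits. With each library's length trend removed, the subunits below 0.05 were not all lower, as given further on. Counted instead by values that did not overlap, 0 subunits lay wholly below the shams in the 1xCHI group (0.0985% of all features did), 5 in the 2xCHI group (3.83%), 1 in the 3xCHI group (0.145%), 1 in the 4xCHI group (3.11%) and 0 in the 5xCHI group (0.177%).

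**Figure D2:**
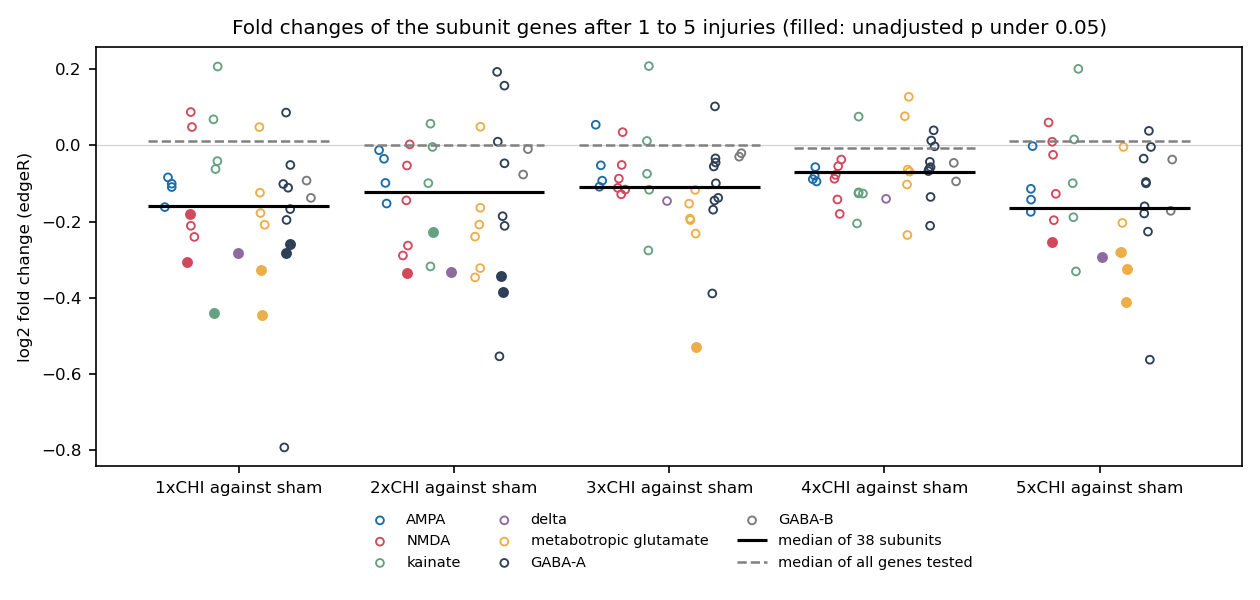
Log2 fold change of 33 of the 38 subunits against sham after 1xCHI to 5xCHI, 1 point per subunit, filled where the unadjusted p was below 0.05. The black lines are the medians of all 38 subunits (−0.16, −0.12, −0.11, −0.07 and −0.16) and the grey dashed lines those of all features, and every filled point lies below 0.

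Among ionotropic glutamate receptors, AMPA class medians of the log2 fold change lay between −0.13 and −0.07. Gria4, which forms rapidly closing AMPA receptors, is named as the AMPA gene with the smallest p. It was at 117, 118, 138 and 129 CPM in the 4 shams and ranged from 65.4 to 145 CPM after 5xCHI, with a median of 109. The groups overlapped, and the log2 fold change was −0.17 ± 0.11 (SE; adjusted p = 0.496, edgeR).

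NMDA class medians lay between −0.20 and −0.08. Grin3a, which lowers the calcium permeability and magnesium block of NMDA receptors, was at 40.4, 33.3, 42.6 and 38.2 CPM in the shams. After 1xCHI its lowest, median and highest values were 22.8, 31.3 and 37.4 CPM, so that the groups overlapped by 1 sham. The log2 fold change was −0.31 ± 0.12 (SE; unadjusted p = 0.0153, adjusted p = 0.243, edgeR). After 2xCHI the samples stood at 37.1, 27.9 and 26.8 CPM, and after 4xCHI at 41.8, 35.3 and 35.7 CPM. Grin1 was lower by 0.18 after 1xCHI at an unadjusted p of 0.0449.

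Kainate class medians ran from −0.13 to −0.04. Grik3, a low-affinity kainate subunit, was at 87.0, 91.8, 108 and 109 CPM in the shams and at 50.7 to 96.3 CPM after 1xCHI (median 69.8). Its log2 fold change was −0.44 ± 0.18 (SE; unadjusted p = 0.0186, adjusted p = 0.247, edgeR). The 4xCHI samples spanned 62.9 to 106 CPM and overlapped the shams. Grik2 was lower by 0.23 after 2xCHI at an unadjusted p of 0.0375.

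The delta gene Grid1 had negative values in every comparison with sham. It was at 62.4, 54.9, 55.6 and 61.4 CPM in the shams and at 48.5, 44.8 and 46.2 CPM after 2xCHI, where the samples all lay below the shams. After 5xCHI it ranged from 35.7 to 57.8 CPM (median 47.5) and overlapped the shams. The log2 fold change was −0.28 in the 1xCHI group, −0.33 in the 2xCHI group and −0.29 ± 0.10 (SE) in the 5xCHI group, the last with an unadjusted p of 0.00783 and an adjusted p of 0.372 in edgeR.

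Metabotropic class medians lay between −0.28 and −0.06. Grm4, a presynaptic receptor that inhibits adenylyl cyclase, had the smallest p of any subunit. It was at 21.3, 26.5, 22.6 and 28.1 CPM in the shams and at 12.8 to 20.2 CPM after 3xCHI (median 16.8), and all 9 of those samples lay below the 4 shams. The log2 fold change was −0.53 ± 0.14 (SE), with an unadjusted p of 0.000443 and an adjusted p of 0.911 over all features in edgeR. The 2xCHI samples were at 17.6, 20.6 and 20.9 CPM, also below the shams, whereas the 4xCHI samples (23.7, 21.4 and 17.6 CPM) overlapped them. After 5xCHI Grm4 was lower by 0.33 (unadjusted p of 0.0213), Grm8 by 0.41 (0.0143) and Grm7 by 0.28 (0.0425).

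GABA-A class medians ran from −0.18 to −0.05. Gabrg3, a low-abundance gamma subunit, was at 36.0, 30.1, 30.1 and 34.1 CPM in the shams and at 27.1, 24.9 and 22.8 CPM after 2xCHI. The 4xCHI samples (29.3, 27.4 and 27.7 CPM) likewise lay below all shams, while the 3xCHI samples reached 36.0 CPM. The log2 fold change after 2xCHI was −0.38 ± 0.16 (SE; unadjusted p = 0.0220, adjusted p = 0.943, edgeR). Gabrb1 was at 132, 116, 149 and 129 CPM in the shams and at 107, 107 and 96.4 CPM after 2xCHI, lower by 0.34 at an unadjusted p of 0.0304. GABA-B medians lay between −0.11 and −0.02. Gabbr1 was at 667, 650, 747 and 733 CPM in the shams and at 585 to 733 CPM after 1xCHI (median 641), a log2 fold change of −0.09 ± 0.07 (SE; adjusted p = 0.426, edgeR).

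**Figure D3:**
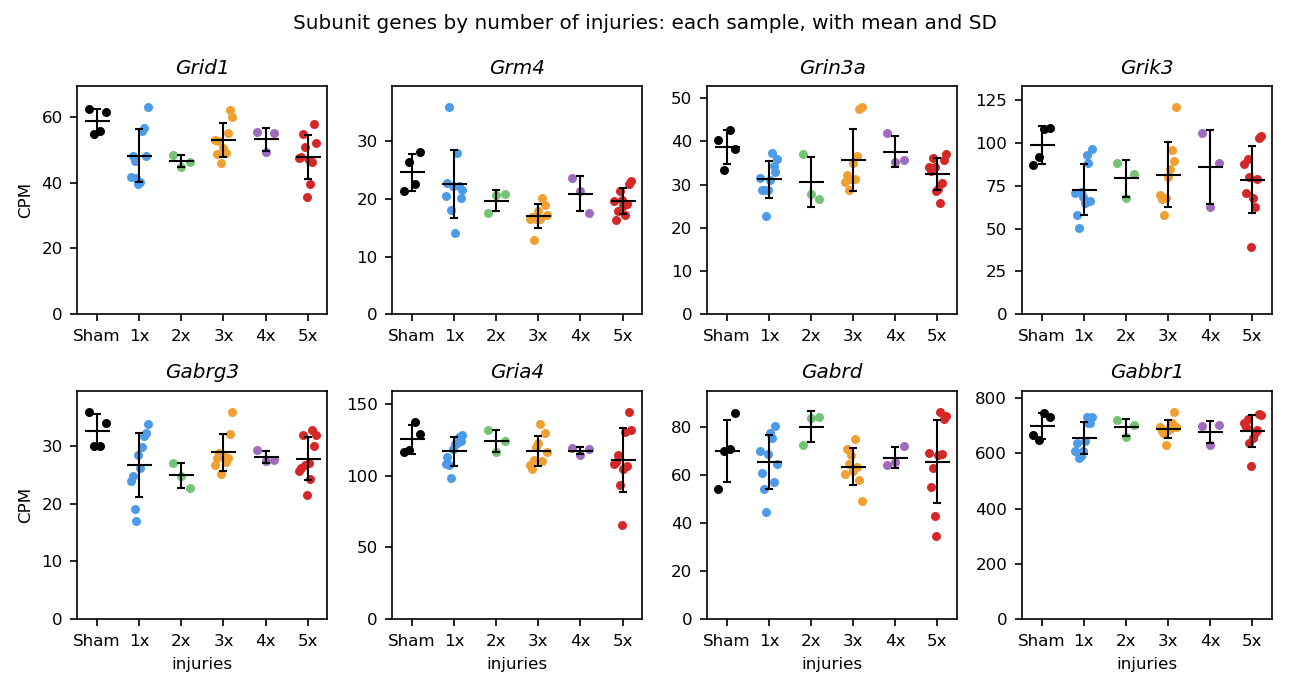
CPM of Grid1, Grm4, Grin3a, Grik3, Gabrg3, Gria4, Gabrd and Gabbr1 by number of injuries, 1 point per sample, with the group mean and SD. The 9 Grm4 values after 3xCHI (12.8 to 20.2 CPM) lie below the 4 shams (21.3 to 28.1 CPM), and for Gria4 and Gabbr1 injured and sham samples overlap throughout.

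The next comparisons set each time after 1xCHI, 3xCHI and 5xCHI against the group that the study treats as pre-injury. This was the pooled shams, 2xCHI at 24 h or 4xCHI at 24 h respectively. No subunit passed the adjusted threshold in any of the 9 comparisons, and neither did any feature (0%). At an unadjusted p below 0.05, either direction, 1 subunit stood out 30 min after 1xCHI (19.7% of all features), 3 at 4 h (2 lower and 1 higher, 10.5%) and 1 at 24 h (6.02%). After 3xCHI the counts were 0 at 30 min (1.88%), 0 at 4 h (2%) and 4 at 24 h (1 lower and 3 higher, 4.57%), and after 5xCHI 1 at 30 min (6.36%), 0 at 4 h (5.33%) and 1 at 24 h (6.44%).

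Some of the subunits behind these counts are given here after their values were seen. The 2 lower ones at 4 h after 1xCHI were Gabrg3 and Grin3a. Gabrg3 was at 19.2, 17.1 and 33.9 CPM and Grin3a at 28.7, 22.8 and 35.9 CPM, with 1 of 3 samples inside the sham range for each. Their log2 fold changes were −0.48 ± 0.16 (unadjusted p of 0.00471) and −0.41 ± 0.15 (0.0101). Without sample 15, whose Gabra6 level stood apart from that of the other libraries, they were −0.35 (unadjusted p of 0.0530) and −0.40 (0.0300). Grid1 at 24 h was lower by 0.35 ± 0.13 (unadjusted p of 0.0100), at 39.5, 40.1, 55.8 and 48.1 CPM.

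At 24 h after 3xCHI, Gabrb1 was at 117, 112, 172 and 170 CPM against 107, 107 and 96.4 in the 2xCHI group, higher by 0.46 ± 0.15 (unadjusted p of 0.00383). Grin3a was at 32.3, 36.6, 47.4 and 48.0 CPM there, higher by 0.43 ± 0.15 than after 2xCHI (unadjusted p of 0.00702). For both genes samples 37 and 38 stood above the other 24 h samples, and these libraries had length slopes (a measure explained further on) of 0.112 and 0.138, against −0.0407 and 0.00737 for the others. Gabrd, the subunit of tonic inhibition, was lower by 0.41 ± 0.20 (unadjusted p of 0.0475), at 70.7, 63.3, 57.7 and 49.2 CPM against 72.6, 83.8 and 84.1.

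Grm8, a presynaptic inhibitor of glutamate release, was at 19.2, 19.4 and 14.9 CPM after 4xCHI. It was at 11.1, 13.3 and 10.4 CPM at 30 min after 5xCHI and at 11.9, 10.6, 10.2 and 13.5 CPM at 24 h, below all 4xCHI samples at both times. The log2 fold changes were −0.62 ± 0.22 (unadjusted p of 0.00773) and −0.62 ± 0.20 (unadjusted p of 0.00398). At 4 h, with samples at 16.5, 13.7 and 11.4 CPM, 1 lay within the 4xCHI range.

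Leaving out single samples changed the call in 2 of these comparisons. Without sample 27, 7 subunits passed the adjusted threshold in edgeR at 30 min after 1xCHI, where 23.7% of all features did. The other 30 min samples were low for Gabrb2, a main beta subunit (11.5 and 22.4 CPM against 96.2 in sample 27 and 54.3 to 133 in shams) and for Grm5 (114 and 111 CPM against 183 in sample 27 and 148 to 201 in shams). Without sample 27 the log2 fold change of Gabrb2 was −2.47 ± 0.84 (SE), and Grm5 (−0.62), Grm7 (−0.53) and Gabrb1 (−0.47) also passed, while Grin2c passed in the opposite direction (0.44). Without sample 36, Gabrg3 (−0.87), Grin3a (−0.61) and Grm3 (−0.99) passed at 4 h after 1xCHI, where 3.8% of all features did. That fit left only samples 15 and 16 in the group, and sample 15 held transcripts of cerebellar granule cells, as given further on. Samples 27 and 36 were the only members of their groups numbered above 18. Their length slopes were 0.0879 and 0.138, against −0.198 and −0.115 for the other 30 min samples and −0.112 and −0.103 for the other 4 h samples. Mitochondrial counts made up 7.10% of sample 27 and 10.3% and 10.1% of the other 30 min samples, and the part of these library differences was not tested. These subunits were named after their values were seen.

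Between 30 min, 4 h and 24 h over the 1xCHI, 3xCHI and 5xCHI mice, 25 features differed (0.164%, adjusted p below 0.05 in edgeR) and none was a subunit. At an unadjusted p below 0.05 the counts were 0 subunits and 5.85% of features. The smallest unadjusted p within a class was 0.116 for Grin3a, 0.176 for Gabrd, 0.185 for Grik1, 0.368 for Gria4 and 0.717 for Gabbr1. Among injury numbers at 24 h no subunit and no feature passed (0%), and Grm8 (unadjusted p of 0.0142), Grin3a (0.0431) and Grid1 (0.0496) were the 3 subunits below an unadjusted 0.05, where 4.68% of features were. A linear trend per added injury at 24 h was called for 0 subunits (0% of features).

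Ratios of paired subunit transcripts were compared, which in bulk tissue do not measure the makeup of assembled receptors. Grin2a to Grin2b, which rises as NMDA receptors mature, had a mean log2 ratio of −0.58 ± 0.11 (SD, n = 4) in shams and between −0.69 and −0.45 in the injured groups. Gria2 to Gria1 was 1.65 ± 0.14 (SD, n = 4) in shams, and the 9 samples of the 3xCHI group averaged 1.48 ± 0.08 (SD), which differed by −0.16 with an exact two-sided permutation p of 0.0224 (0.336 adjusted over the 15 comparisons of ratios made). All 9 samples lay below the sham median. Of the 15 comparisons 0 passed after adjustment, and 3 samples against 4 cannot give a p below 0.0286 before it.

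**Figure D4:**
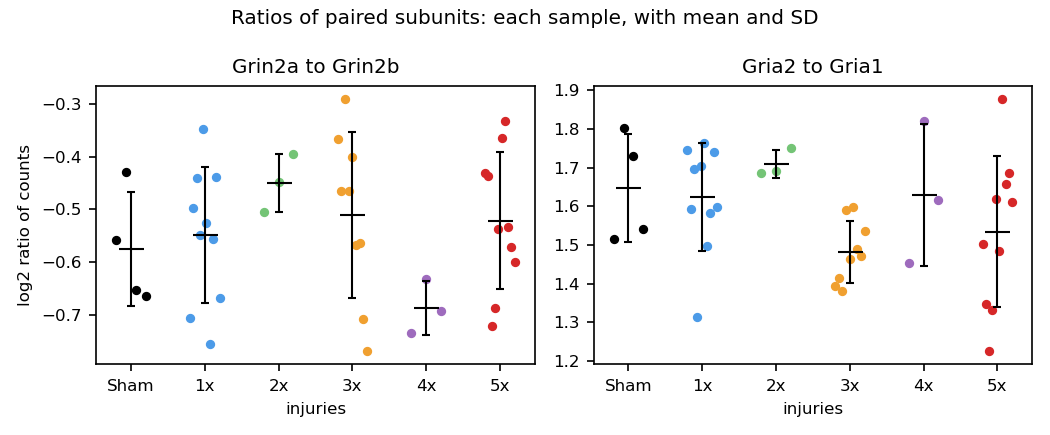
Log2 ratios of Grin2a to Grin2b and of Gria2 to Gria1 by number of injuries, 1 point per sample, with group mean and SD. The Gria2 to Gria1 ratio after 3xCHI lies between 1.38 and 1.60, and the shams lie between 1.52 and 1.80.

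The subunits varied with a property of the libraries, namely how strongly a library's counts rose or fell with transcript length, expressed as a slope in log2 CPM per doubling of length. This slope ran from −0.206 to 0.138 over 39 samples, and the mean log2 deviation of the 38 subunits rose with it (Pearson's r = 0.938, Spearman's rho = 0.938, permutation p = 1e-05 for each, the smallest that 100000 permutations can give). Without the 2 samples farthest from the median slope r was 0.932, among samples 1 to 18 it was 0.886 and among samples 19 to 40 it was 0.899. An r above 0.5 with the slope was found for 25 of the 38 subunits (65.8%) and for 23.8% of all features. The slope is itself a trend on transcript length, and the subunit transcripts ran from 1921 (Gabrd) to 24060 bases (Grin2b). The share over all features was not matched for length. These values therefore do not set the subunits apart from other genes of like length. A permutation p below 0.05 after adjustment over the 38 subunits was reached by 29, 27 with a positive and 2 with a negative r. The permutation test was not run over all features. A positive r was found for 31 subunits and for 46.7% of all features. The mean of the subunits was lower where the share of ribosomal protein counts was higher (r = −0.955, rho = −0.958, permutation p = 1e-05 for each, also after adjustment over 2 shares). That r was −0.935 without 2 samples and −0.941 and −0.931 within the sample ranges. For the mitochondrial share r was −0.682 and rho −0.798 (permutation p = 1e-05 for each, also adjusted), −0.650 without 2 samples and −0.515 and −0.679 within the ranges.

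Gabrb2 followed the slope most closely (r = 0.943), with a range of 9.12 to 143 CPM, while its class neighbour Gabra2 stayed between 133 and 177 CPM (r = −0.03). The subunit ratios were set against the slope as well. Grin2a to Grin2b had an r of −0.395 with the slope (rho −0.472, permutation p = 0.0126 and 0.00262, 0.0189 and 0.00393 adjusted over 3 ratios), −0.582 without 2 samples, and 0.193 and −0.610 within samples 1 to 18 and 19 to 40, so that the sign did not hold in both. Gria2 to Gria1 had an r of −0.0706 (rho −0.0840, permutation p = 0.670 and 0.611, the same adjusted), 0.0203 without 2 samples, and −0.592 and −0.463 within the ranges. Among single subunits, Grik4 (r = −0.55) and Grin2c (r = −0.50) went the other way. Over the other 37 subunits the highest sample was 1.33 to 3.88 times the lowest, and 20 of the 38 had their lowest value in sample 11, a 5xCHI 24 h library that had the lowest slope. Groups differed in slope. Shams averaged 0.09, and the 1xCHI to 5xCHI groups averaged −0.04, −0.015, 0.008, 0.026 and −0.007 in turn, all below the shams. Samples 1 to 18 held 1 of 4 shams, 6 of 10 1xCHI, 5 of 9 3xCHI and 6 of 10 5xCHI samples and none from 2xCHI or 4xCHI, and the labels do not say what the numbers mark.

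With the length trend removed from each library, the median log2 fold changes of the subunits were −0.04, −0.01, −0.06, −0.03 and −0.09 after 1xCHI to 5xCHI. Values below 0 were then found for 25, 21, 25, 25 and 22 of the 38 subunits. At an unadjusted p below 0.05 in edgeR, 3, 1, 1, 0 and 4 were lower and 3, 0, 1, 0 and 1 higher. Among the 15224 features, 1561, 410, 505, 207 and 1558 were below it in either direction. A covariate for sample numbers up to 18 or above gave medians of −0.08, −0.18, −0.05, −0.12 and −0.08. Within samples 19 to 40 alone, the median difference from the 3 shams was 0.02, −0.15, −0.03, −0.10 and −0.04 for 1 to 5 injuries in turn, with 16, 31, 25, 31 and 27 of the 38 subunits lower. The part of the slope in the differences from sham was not tested beyond these values.

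**Figure D5:**
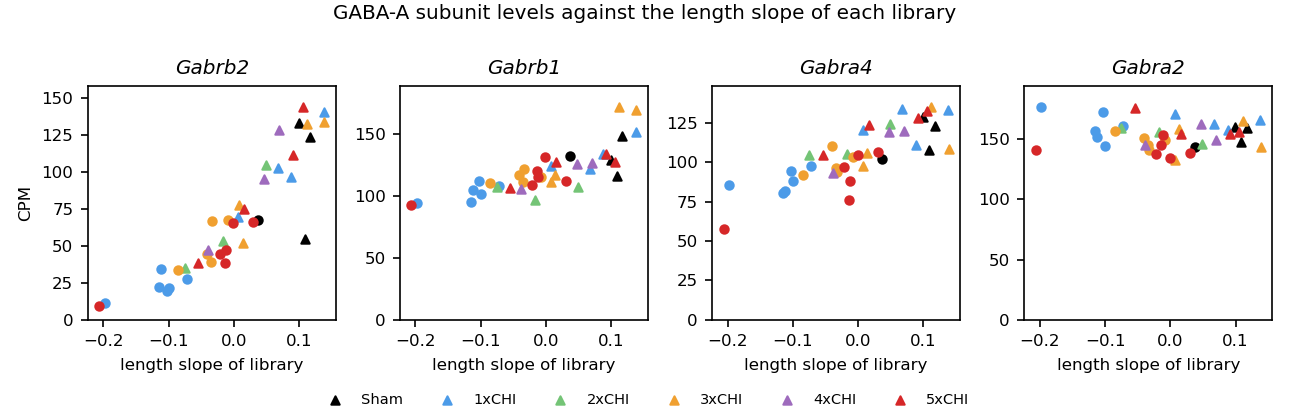
CPM of Gabrb2, Gabrb1, Gabra4 and Gabra2 in each of 39 samples against the length slope of its library (log2 CPM per doubling of transcript length), with circles for samples 1 to 18 and triangles for samples 19 to 40. Gabrb2 runs from 9.12 CPM at the lowest slopes to 143 CPM, and Gabra2 stays between 133 and 177 CPM.

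Neighbouring GABA-A genes were compared across the 39 samples, 12 pairs in all. Over the 12 pairs r ran from −0.490 to 0.974, and from −0.402 to 0.955 with length and GC trends removed, and the pairs given here do not stand for the set. Gabra4 and Gabrb1, whose start windows are printed above, had an r of 0.657 (rho 0.695, permutation p = 2e-05 and 1e-05, 6e-05 and 2.4e-05 adjusted over the 12 pairs; 0.672 without 2 samples, 0.633 and 0.553 within the sample ranges), and −0.335 with trends removed or −0.0378 with the length slope of the library regressed out, so that neither correction left a positive relation. The median over all 703 pairs of subunits was 0.311. Gabra5 and Gabrg3, neighbours on chromosome 7, went from 0.459 to 0.584 (rho 0.370, permutation p = 0.00355 and 0.0214, 0.00609 and 0.0367 adjusted; 0.254 without 2 samples, 0.666 and 0.409 within the ranges), and were at 0.548 with the slope regressed out. Gabra2 and Gabrg1 ran opposite to each other, at −0.490, at −0.143 with trends removed and at −0.514 with the slope regressed out (rho −0.338, permutation p = 0.00136 and 0.0365, 0.00272 and 0.0487 adjusted; −0.552 without 2 samples, −0.802 and −0.225 within the ranges).

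Other genes of the 2 transmitter systems were read from lists of 75 genes, all tested, and 0 were called in any of the 19 comparisons. Of 42 receptor scaffolds and auxiliary subunits, 2, 2, 1, 0 and 5 were lower after 1xCHI to 5xCHI at an unadjusted p below 0.05, where 6.33, 2.12, 1.6, 1.04 and 4.07% of all features were, with medians between −0.12 and −0.07. Cacng4, an AMPA receptor auxiliary subunit, had a median of 23.9 CPM after 3xCHI and 27.8 in shams (log2 fold change −0.35 ± 0.11, unadjusted p of 0.00319), and Shisa9, another, was lower by 0.24 ± 0.10 after 5xCHI (unadjusted p of 0.0218).

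Of 15 genes of glutamate and GABA synthesis, transport and clearance, 6, 0, 1, 0 and 2 were lower at an unadjusted p below 0.05, beside the same shares of all features (6.33, 2.12, 1.6, 1.04 and 4.07%), and the median after 1xCHI was −0.22. Slc1a2, the main astrocytic glutamate transporter, was at 2405 to 3408 CPM in shams and at 1481 to 3373 CPM after 1xCHI, lower by 0.37 ± 0.14 (unadjusted p of 0.0119). Slc17a6, a vesicular glutamate transporter of subcortical neurons, was lower by 0.58 ± 0.23 after 5xCHI (unadjusted p of 0.0162). Of 18 signalling effectors, 0 were lower at an unadjusted p below 0.05 in any of these comparisons, where 1.04 to 6.33% of all features were. Itpr1, the receptor through which inositol trisphosphate releases calcium, was at −0.46 ± 0.23 after 1xCHI (unadjusted p of 0.0564), and Kalrn, a dendritic spine exchange factor, at −0.24 ± 0.12 (0.0584). None of these list members was higher at an unadjusted p below 0.05 in the comparisons with sham.

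Cell type markers were set beside these values. The cortical excitatory gene Slc17a7 was present in every library, at 929 to 1365 CPM (here and for the markers, scaled by library size without TMM). The summed level of 15 neuronal markers was 11840 to 12040 CPM in shams, 10093 to 12365 after 1xCHI (median 11145), 11274 to 12439 after 3xCHI (median 12001) and 9005 to 12333 after 5xCHI (median 11614), so that the 1xCHI and 5xCHI medians lay below every sham. It was 11445 to 12315 CPM with 4xCHI and 12353 to 12545 with 2xCHI, where all 3 samples lay above the shams. For 10 interneuron markers the sums were 885 to 1001 CPM in shams, and the medians were 819 after 1xCHI and 873 after 5xCHI, below every sham, against 935, 926 and 889 with 2xCHI, 3xCHI and 4xCHI. For 12 astrocyte markers they were 3916 to 4875 CPM in shams (median 4388), 2663 to 4974 after 1xCHI (median 3716), where Slc1a2, itself an astrocyte gene, had a lower mean, and up to 7223 after 5xCHI. For 12 microglial markers the shams spanned 392 to 432 CPM, and all 9 samples of the 3xCHI group, at 458 to 589 CPM, lay above them. The microglial sums were 340 to 460 CPM with 1xCHI, 408 to 443 with 2xCHI, 426 to 461 with 4xCHI and 401 to 1414 with 5xCHI. For 10 oligodendrocyte markers the sums were 5033 to 7574 CPM in shams and 4095 to 9727 in injured mice. Every gene of these 5 lists was past the limit on counts. A list of 9 striatal genes ran from 130 to 801 CPM. Across the 39 samples the mean of the subunits rose with the log2 neuronal sum (r = 0.681, rho = 0.559, permutation p = 3e-05 and 0.00026, 0.00036 and 0.00156 adjusted over 12 lists). That r was 0.587 without the 2 farthest samples and 0.770 within samples 1 to 18, and the relation did not hold within samples 19 to 40 (−0.131). For the interneuron sum r was 0.581 and rho 0.623 (permutation p = 9e-05 and 2e-05, 0.00054 and 0.00024 adjusted), 0.667 without 2 samples and 0.490 and 0.274 within the ranges. For the oligodendrocyte sum r was −0.558 and rho −0.514 (permutation p = 0.00019 and 0.00103, 0.00076 and 0.00309 adjusted), −0.462 without 2 samples and −0.435 and −0.357 within the ranges. For astrocytes r was 0.175 and rho 0.514 (permutation p = 0.28 and 0.00103, 0.305 and 0.00309 adjusted), 0.771 without 2 samples and −0.0852 and 0.869 within the ranges. For microglia r was −0.373 and rho 0.0360 (permutation p = 0.0225 and 0.826, 0.0675 and 0.901 adjusted), 0.157 without 2 samples and −0.366 and 0.173 within the ranges, so that its sign rested on those 2 samples. The part of these cell types in the subunits' differences was not tested beyond these values.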

How the data were processed

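Gene-level estimated counts were deposited for 40 libraries. The authors had RNA extracted with a Qiagen kit, and a sequencing company made the alignments and the count table; the build is mm10 per the submitters' processing notes, per the file headers the columns have the names of gene-level output of the Salmon quantifier, and its version, annotation and strand setting are not given in the sources used here. Of these estimated counts 4.46% were not whole and were rounded. Sample 30 (3xCHI, 4 h) was left out because the study dropped it as an outlier in its protein data. Features with 10 or more counts in at least 35 samples were kept. Replicates came from separate animals, and 46 pairs within groups all differed by more than sampling noise.

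Tests used edgeR 4.0.16 in R 4.3.3 (TMM scaling, quasi-likelihood F test, Benjamini-Hochberg adjustment over 15224 features) and were tested on simulated data. CPM are counts scaled by TMM to a library total of 1000000. DESeq2 1.42.0 was an alternative, as were other scalings, filters, a covariate for sample number and removal of length trends. Times were combined by injury number, as in the study. Ratios used log2 of rounded counts plus 0.5 and exact permutation tests. Correlations used 100000 permutations, with subunit levels as log2(CPM + 0.5) (Python 3.11.15, scipy 1.17.1). Lengths came from GENCODE M21 on GRCm38, and start windows from RefSeq.

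The genes and lists were chosen with earlier results of these data known. Named genes were, in each class, those with the smallest p against sham and between times. Some genes of the lists are counted in the totals but not reported here by name. Genes outside that rule were named after their values were seen.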

Additional observations from a re-analysis of the deposited data

Results flagged for a closer look

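Of 98 groups of subunit values tested for a sample far from the rest, 4 had one, where chance gives 4.9 (1 in 20). Sample 11 (5xCHI, 24 h) stood below the other 5xCHI samples for Gabbr1, at 554 CPM, and for Grik3, at 39.4 CPM. Sample 26 stood above the other 24 h samples after 1xCHI for Grik3, at 93.0 CPM. Sample 3 stood below the other 3xCHI samples for Grm4, at 12.8 CPM.

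Gabra6, a subunit of cerebellar granule cells, was below the limit on counts, but in sample 15 (1xCHI, 4 h) it reached 12.8 CPM (247 counts), against at most 0.580 CPM (12 counts) in the other 38 samples. The cerebellar granule cell genes Cbln3 and Fat2 were at 33.4 and 17.6 CPM there and at most 2.30 and 1.49 CPM elsewhere, by library size without TMM scaling. Grm4 was at its highest there, 36.0 CPM with TMM scaling. Without sample 15 the log2 fold change of Grm4 at 4 h after 1xCHI went from 0.04 to −0.31 (adjusted p = 0.814, edgeR). That of Grm4 over all 1xCHI times went from −0.12 to −0.22 (adjusted p = 0.356, edgeR). At 4 h, Gabrg3 went from −0.48 to −0.35, with an unadjusted p of 0.0530 in place of 0.00471, and Grin3a from −0.41 to −0.40 (0.0300 in place of 0.0101).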

How the results depend on the processing

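No paired analysis was possible because each sample has a number of its own and no number is shared between groups. Over all alternatives, 0 subunits were called except between a time and the group before that injury, where leaving out single samples gave 0 to 7 (7 without sample 27, 3 without sample 36). DESeq2 called 24 features after 1xCHI, 10 after 5xCHI, and 28 at 30 min and 11 at 4 h after 1xCHI. It called 4 at 30 min after 3xCHI and 1 at 30 min after 5xCHI. Between times it called 38 (43 for 30 min and 1 for 4 h against 24 h). Among injury numbers at 24 h it called 13, and 1 for the trend, with 0 subunits in each of these comparisons. The cause was not tested.

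The median log2 fold change of the subunits after 1xCHI was −0.0081 with length and GC trends removed and samples 1 to 18 against 19 to 40 as a covariate (chosen after seeing the data, as were all settings with GC or without samples 11 and 13). Leaving out single samples gave −0.21 to −0.13 after 1xCHI, −0.16 to −0.093 after 2xCHI, −0.13 to −0.082 after 3xCHI, −0.098 to 0.0046 after 4xCHI (0.0046 without sample 25) and −0.21 to −0.11 after 5xCHI (−0.11 without sample 11). Of 12 named fold changes under 552 alternative values, 535 kept their direction and side and 17 reversed.

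Gabrd at 30 min against 24 h turned to 0.034 with the covariate and 0.0041 with trends removed as well, and ranged from −0.088 to 0.021 without single samples. Gabbr1 after 1xCHI turned to 0.0054 (length trend removed), 0.000412 (length and GC) and 0.023 (with the covariate too), and at 30 min against 24 h to 0.011 (covariate), 0.011 (length), 0.0013 (length and GC) and 0.019 (all). Gria4 at 30 min against 24 h ranged from −0.025 to 0.081 without single samples.

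In samples 19 to 40 alone, the differences in log2 ratio of Grin2a to Grin2b turned to −0.023 (1xCHI) and −0.071 (3xCHI) and of Gria2 to Gria1 to 0.017 (5xCHI). Without single samples, Gria2 to Gria1 ranged from −0.068 to 0.028 (1xCHI) and −0.11 to 0.070 (4xCHI), and Grin2a to Grin2b from −0.0021 to 0.076 (1xCHI). The cause was not tested. Sham, 2xCHI and 4xCHI held only 3 or 4 samples, and the lowest library held 15926014 counts.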
